A study of Arabidopsis thaliana with 6 samples.

Results

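Probe sets of single genes named by number as WRKY, bHLH or NAC transcription factors were followed across cultured Arabidopsis thaliana cells grown with and without isoxaben, a herbicide that blocks cellulose synthesis. They were chosen by gene symbol in the platform annotation: the family name and a number, for MYB, WRKY, NAC, bHLH or ERF, together with ZAP1, a WRKY factor with a name of its own. The rule found 13 members among 22746 probe sets other than controls, namely 7 WRKY, 5 bHLH and 1 NAC gene, each with a single probe set. It found 0 MYB and 0 ERF probe sets, so those families are not described here by numbered members, and 9233 further probe sets carry several genes or no name here. The rule itself used no measured value, but ZAP1 was added to it by name. Members were chosen with earlier results of these data known, so the choice was not blind to the results.

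The control group was 3 arrays of suspension cells in Murashige and Skoog medium with sucrose, the synthetic auxin naphthalene acetic acid and the cytokinin kinetin. The isoxaben group was 3 arrays of cells from the same kind of culture, with 0.1 mM isoxaben given as the treatment. The labels state neither the length of treatment nor the line or ecotype of the cells. Nor do they say that each array had a culture of its own, so the p-values rest on a spread between arrays that may be technical. RNA was hybridised to Affymetrix ATH1 arrays, which give 1 linear signal intensity per probe set, scaled by the submitters.

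WRKY proteins bind DNA through a domain that joins a conserved WRKY motif to a zinc finger, and are known above all from defence, senescence and nutrient responses. The bHLH proteins bind DNA as dimers through a basic helix-loop-helix. All 5 bHLH members here belong to the iron deficiency cascade of Arabidopsis: bHLH34, bHLH104 and bHLH115, with their relative ILR3, form dimers that switch on the genes of a lower tier, bHLH121 acts with them, and BHLH101 belongs to that lower tier, whose products work with the master regulator of iron uptake, FIT. NAC proteins include the master switches of secondary wall formation, none of which is among the members.

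The arrays stood apart in some respects. Isoxaben replicate 1 carries the code DCB in its source name, although isoxaben is what its title and its treatment protocol give. It shares a title set with control replicate 1, and the second title set holds replicates 2 and 3 of both groups. The labels give 7023 outlier cells for control replicate 1 and 160 to 613 for the other arrays. Over tested probe sets, correlations were 0.956 to 0.992 within groups and 0.745 to 0.773 between them. Of the markers listed for leaf, flower, seed, root hair, xylem, pollen and guard cells, 7 had a named probe set, and 6 of them lay below the filter on dim probe sets. No probe set of a floral or xylem marker is named here. The leaf marker LHCB4.1, a chlorophyll-binding protein of photosystem II, was at 34.9 to 54.8 in control and 202.1 to 212.5 in isoxaben cultures, and its part in the results below was not tested. Cell suspensions have no defining marker of their own in these lists, and in such bulk samples fewer cells of a type and less RNA per cell cannot be told apart.

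Setting the isoxaben against the control arrays asks which transcripts differ between cells grown with and without isoxaben. Cellulose synthesis itself is not measured by these arrays. Among the members, WRKY53, ZAP1, WRKY20 and bHLH121 fell and none rose in the fit without a replicate block. With the replicate number as a block, WRKY6 also passed as lower and NAC014 as higher, but each passed in only 5 of 17 alternative fits. That block pairs arrays by number alone. Deviations from the group means correlated at 0.110 and 0.128 for numbers 2 and 3 matched, and at 0.101 and 0.118 for them crossed. Signal means fell from 97.3 to 30.3 for WRKY53, from 255 to 120 for ZAP1, from 137 to 100.1 for WRKY20 and from 160 to 75.0 for bHLH121. The other tested members, among them the iron regulators bHLH34, bHLH104 and bHLH115, passed neither with nor without the replicate block. WRKY42 and BHLH101 were too dim to be tested.

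Tests ran over all 13648 probe sets whose mean log2(signal + 16) lay at or above the 40th percentile, which is a signal of 22.1. Of these, 56.6% were called by limma at a Benjamini-Hochberg adjusted p under 0.05, 29.4% as higher and 27.2% as lower. Of the 13 members, 11 passed the filter. In limma, 4 were called lower and 0 higher, and at an unadjusted p under 0.05 the counts were also 4 and 0. The share of tested members called, 36.4%, was thus not above that of all probe sets. With the replicate block, limma called 5 lower and 1 higher, 54.5% of the tested members against 59.8% of all tested probe sets. The median log2 change was -0.00 over the tested members and 0.00824 over all tested probe sets, and the median size of the change was 0.35 and 0.46. The groups did not overlap for 4 of the 11, against 63.2% of all tested probe sets.

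**Figure D1:**
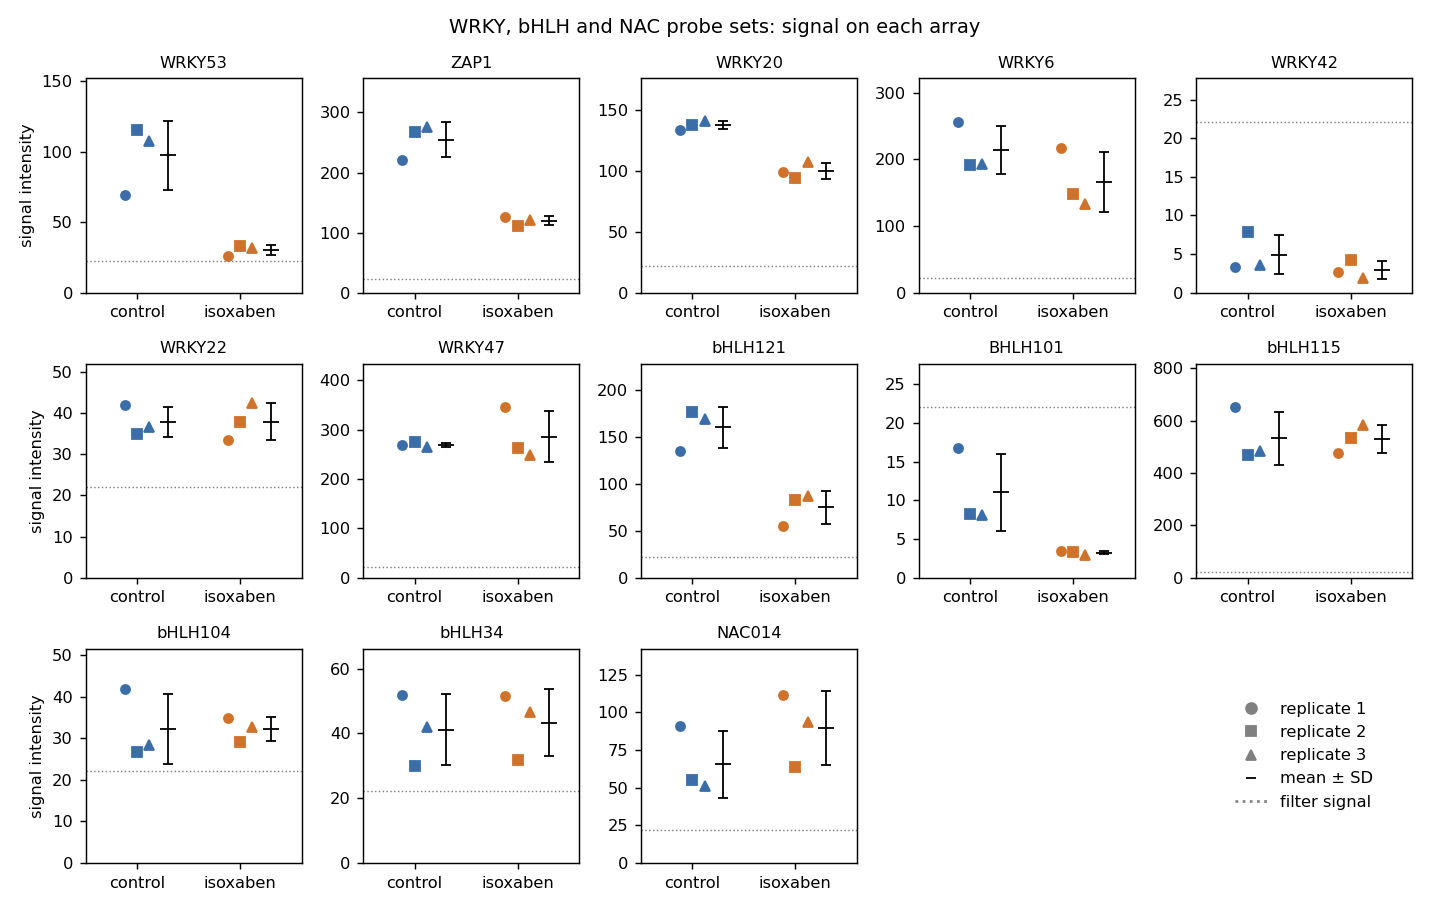
Signal intensity (linear, vertical axis from 0) of each of the 13 members on the 3 control arrays (blue) and the 3 isoxaben arrays (orange), with symbols for replicates, the mean ± SD beside them and a dotted line at the filter signal of 22.1. WRKY53, ZAP1, WRKY20, bHLH121 and BHLH101 show no overlap between groups, and WRKY42 and BHLH101 lie wholly under the dotted line.

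**Figure D2:**
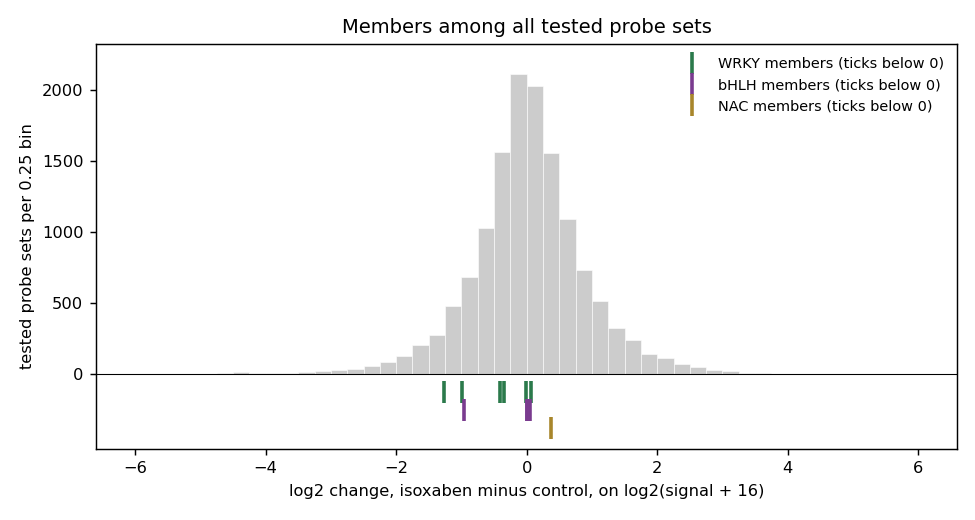
Number of tested probe sets (vertical axis) by log2 change on the log2(signal + 16) scale (horizontal axis, bins of 0.25), with coloured ticks under the axis for the 11 tested members by family. The members lie between -1.27 and 0.38, inside the bulk of the 13648 probe sets.

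WRKY53 (AT4G23810), a promoter of leaf senescence of WRKY group III, had signals of 69.3, 115.1 and 107.5 in control replicates 1, 2 and 3, and of 26.1, 33.4 and 31.4 in isoxaben replicates 1, 2 and 3. All control arrays lay above all isoxaben arrays, and the lowest control signal was that of replicate 1. The mean went from 97.3 ± 24.5 to 30.3 ± 3.77 (SD, n = 3 each), a 3.21-fold lower signal. The log2 change was -1.27 ± 0.18 (SE; limma adjusted p = 0.000173), and 13.3% of tested probe sets had a larger change in either direction. WRKY53 was the only member called with a log2 change of at least 1 in size, as were 20.9% of all tested probe sets. Its change was -1.20 without isoxaben replicate 1 and -1.46 without control replicate 1, and limma called it in both fits. With a pseudocount of 64 it was -0.76.

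ZAP1 (AT2G04880), also named WRKY1, is a DNA-binding activator of WRKY group I, whose members carry a pair of WRKY domains. Its signals were 221.4, 267.3 and 275.9 in the control and 126.4, 111.1 and 121.8 in the isoxaben replicates, in the order of their numbers. The groups were far apart relative to their spread, at 255 ± 29.3 and 120 ± 7.85 (SD, n = 3 each), a 2.13-fold lower signal with isoxaben. The log2 change of ZAP1 was -0.99 ± 0.12 (SE; limma adjusted p = 7.02e-05), the smallest p among the members. It was -1.03 without isoxaben replicate 1 and -1.08 without control replicate 1.

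WRKY20 (AT4G26640), the other group I member, was at 133.9, 137.5 and 140.5 in control and at 99.1, 94.2 and 107.0 in isoxaben replicates. Although the groups did not overlap and varied little within themselves (SD 3.30 and 6.46), the signal was only 1.37-fold lower. The log2 change was -0.40 ± 0.11 (SE; limma adjusted p = 0.00929), and 55.0% of tested probe sets changed by more. It stayed below the threshold of 0.05 in each of the 17 alternative fits, with an adjusted p of up to 0.0461.

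WRKY6, WRKY42 and WRKY47 belong to WRKY group IIb. WRKY6 (AT1G62300), which acts in senescence and in the phosphate response, was at 256.0, 192.0 and 193.6 in control and at 217.3, 147.7 and 132.7 in isoxaben replicates. The isoxaben signal of replicate 1 exceeded the control signals of replicates 2 and 3, so the groups overlapped, while within each number the isoxaben array was the lower one. The log2 change was -0.35 ± 0.18 (SE; limma adjusted p = 0.124). With the replicate number as a block the change of WRKY6 had a limma adjusted p of 0.0139, with the title set as a block 0.00575, and within the second title set, where it was -0.42, 0.00195. Without isoxaben replicate 1 it was -0.55 and passed (limma adjusted p = 0.0158), and without control replicate 1 it was -0.23 (adjusted p = 0.272). WRKY6 was called in only 5 of the 17 alternative fits.

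WRKY47 (AT4G01720), linked in Arabidopsis to aluminium tolerance through genes of wall-modifying proteins, was at 269.7, 274.3 and 266.0 in control and at 345.7, 263.5 and 249.5 in isoxaben replicates. Isoxaben replicate 1 lay above every other array, and replicates 2 and 3 lay just under the controls. Its log2 change was 0.07 with a 95% interval of -0.23 to 0.36 (limma adjusted p = 0.693), and -0.07 without isoxaben replicate 1. WRKY42 (AT4G04450), which regulates phosphate transport genes, was near the bottom of the signal range on all arrays, at 3.3, 7.9 and 3.6 in control and 2.7, 4.2 and 1.9 in isoxaben replicates. All 6 values lay under the filter signal, so no fold is given.

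WRKY22 (AT4G01250), of group IIe, acts downstream of a MAP kinase cascade in the response to bacterial flagellin. Its signals of 42.0, 35.0 and 36.7 in control and 33.4, 37.8 and 42.3 in isoxaben replicates lay in the same range. The log2 change was -0.00 with a 95% interval of -0.31 to 0.31 (limma adjusted p = 0.987), the change closest to 0 among the tested WRKY members. Over the WRKY family, 3 of 6 tested members fell, none rose, 3 did not pass, and the median log2 change was -0.38. Over all tested probe sets 56.6% were called, 27.2% as lower, so a call in 3 of 6 members is near the background, and WRKY6 was a further fall with the replicate block.

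The listed partners of WRKY factors were few. Of 29 kinases, VQ proteins and immune regulators on that list, 3 had a named probe set and were tested. BIK1, a cytoplasmic kinase of immune receptor complexes, fell from 439 ± 47.2 to 319 ± 31.4 (SD, n = 3 each; log2 change -0.44 ± 0.12 SE, limma adjusted p = 0.00976). IKU1, a VQ protein known from endosperm growth, fell by 0.44 ± 0.13 on the log2 scale (limma adjusted p = 0.0178), and its call was lost without control replicate 3 (adjusted p = 0.0510), isoxaben replicate 2 (0.0644) or isoxaben replicate 3 (0.0783). CML42, a calmodulin-like protein, had a log2 change of -0.33 ± 0.14 that missed the threshold (limma adjusted p = 0.0730). It passed in only 2 of 16 alternative fits, under quantile normalization (limma adjusted p = 0.0228) and median centring (0.0266). Of 26 senescence and phosphate genes linked to WRKY factors, 2 were tested. SAG101, a lipase-like partner of the immune regulator EDS1, fell from 259 ± 44.1 to 95.2 ± 14.0 (log2 change -1.30 ± 0.15, limma adjusted p = 4.46e-05). SAG29, a sugar transporter gene active in senescence, went the other way, from 12.8, 5.0 and 3.3 to 65.8, 73.4 and 67.4 (log2 change 1.90 ± 0.18, limma adjusted p = 1.30e-05). Its control signals all lay below the filter signal, so SAG29 passed the filter only through its isoxaben signals. The size of its change also depends on the pseudocount, with 3.30 as the highest value among the alternatives and 0.91 as the lowest.

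**Figure D3:**
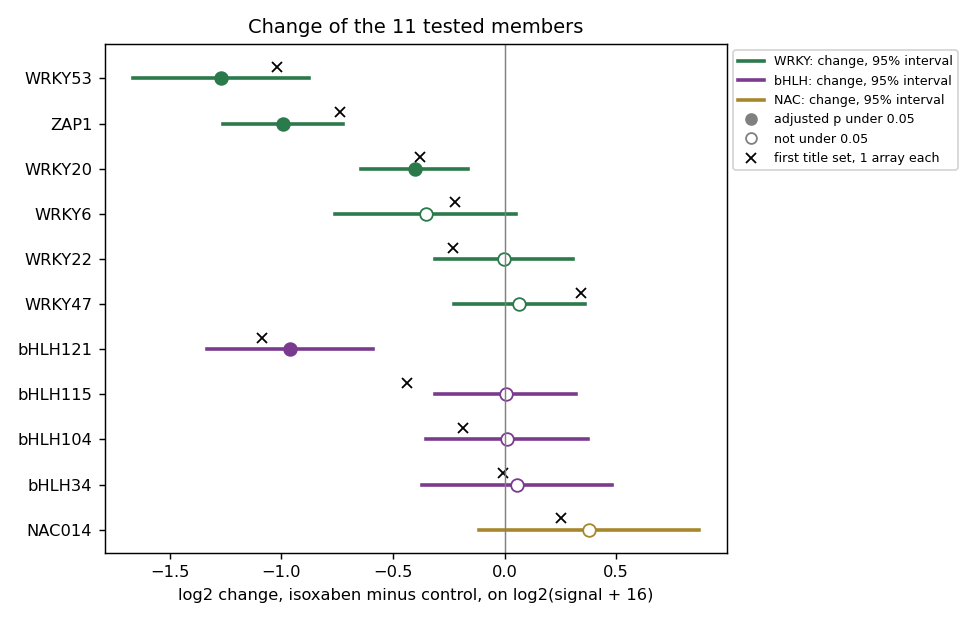
Log2 change of the 11 tested members on the log2(signal + 16) scale (horizontal axis; bars are 95% intervals from limma, filled circles an adjusted p under 0.05, crosses the difference between the 2 arrays of the first title set). The intervals of WRKY53, ZAP1, WRKY20 and bHLH121 lie wholly below 0, and those of the other 7 include 0.

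Among the iron regulators, bHLH121 fell while bHLH34, bHLH104 and bHLH115 did not pass the test. bHLH121 (AT3G19860), a factor required for the iron deficiency response that partners the bHLH34 group, was at 134.8, 175.9 and 168.9 in control and at 55.1, 82.9 and 87.1 in isoxaben replicates. All isoxaben signals lay well under all control signals, and replicate 1 was the lowest array of either group. The mean went from 160 ± 22.0 to 75.0 ± 17.4 (SD, n = 3 each), a 2.13-fold lower signal, and the log2 change was -0.96 ± 0.17 (SE; limma adjusted p = 0.000748). It was -0.79 without isoxaben replicate 1 and -1.07 without control replicate 1, and was called in each of the 17 alternative fits.

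bHLH115 (AT1G51070), an activator of the lower tier of iron genes, was at 650.2, 467.9 and 482.2 in control and at 476.0, 534.2 and 582.9 in isoxaben replicates. The order of the groups differed between the title sets: in the first, control was higher, and in the second both isoxaben arrays were higher. The log2 change of bHLH115 was 0.00 with a 95% interval of -0.31 to 0.32 (limma adjusted p = 0.982), -0.44 in the first title set without a test, and 0.23 within the second, where it passed (limma adjusted p = 0.0326).

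bHLH104 (AT4G14410), of the same group of activators, was at 42.0, 26.7 and 28.3 in control and at 34.9, 29.2 and 32.8 in isoxaben replicates. The isoxaben arrays lay inside the range of the controls, and the log2 change was 0.01 with a 95% interval of -0.35 to 0.38 (limma adjusted p = 0.960). bHLH34 (AT3G23210), a further member of the group, was at 51.8, 29.8 and 42.0 in control and at 51.5, 31.7 and 46.6 in isoxaben replicates. Arrays with the same number had nearly the same signal, and the log2 change was 0.05 with a 95% interval of -0.37 to 0.48 (limma adjusted p = 0.827). These intervals leave room for changes in either direction, so the test does not show that the levels were equal. bHLH104 was also the dimmest member to pass the filter, with a back-transformed mean signal of 32.1.

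BHLH101 (AT5G04150), of the lower tier that iron deficiency induces, was the brighter of the members under the filter, with a back-transformed mean signal of 6.70. Its signals were 16.8, 8.3 and 8.1 in control and 3.4, 3.3 and 3.0 in isoxaben replicates. The groups did not overlap, but all 6 values lay under the filter signal of 22.1. In a limma fit with no filter, where 34.5% of 22746 probe sets were called, its log2 change was -0.48 ± 0.13 (SE; adjusted p = 0.0255). The number of arrays and the lack of detection calls limit what can be read from such dim signals.

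Other genes of iron regulation were also measured. Of 61 genes on an iron list drawn up after the annotation was read, 4 had a named probe set, of which 3 fell and 1 rose. With 56.6% of all tested probe sets called, 27.2% as lower, the count of 4 says little about iron regulation as such. ILR3, the close relative of bHLH115, was at 586.6, 655.5 and 675.1 in control and at 468.4, 386.4 and 368.2 in isoxaben replicates. Every isoxaben array lay below every control array, and its log2 change was -0.63 ± 0.12 (SE; limma adjusted p = 0.00121). PYE, a bHLH repressor of iron homeostasis genes, fell from 108 ± 12.0 to 72.0 ± 4.99 (SD, n = 3 each; log2 change -0.49 ± 0.12, limma adjusted p = 0.00653). AT3G13610, known as F6'H1, an enzyme of the synthesis of coumarins that roots release under iron deficiency, fell from 183.6, 113.8 and 121.7 to 27.1, 20.2 and 18.3 (log2 change -2.02 ± 0.18, limma adjusted p = 9.17e-06). Of its isoxaben signals, 2 lay below the filter signal, and its change was -1.23 with a pseudocount of 64. BGLU42, a beta-glucosidase that frees such coumarins from their sugar, rose from 110.3 ± 3.73 to 199.5 ± 13.1 (log2 change 0.77 ± 0.11, limma adjusted p = 0.000176). All 4 were called in every alternative fit in which they were tested, also without control replicate 1 and without isoxaben replicate 1. Close paralogs such as ILR3 and bHLH115 can bind each other's probes, and the part of this in the values was not tested.

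**Figure D4:**
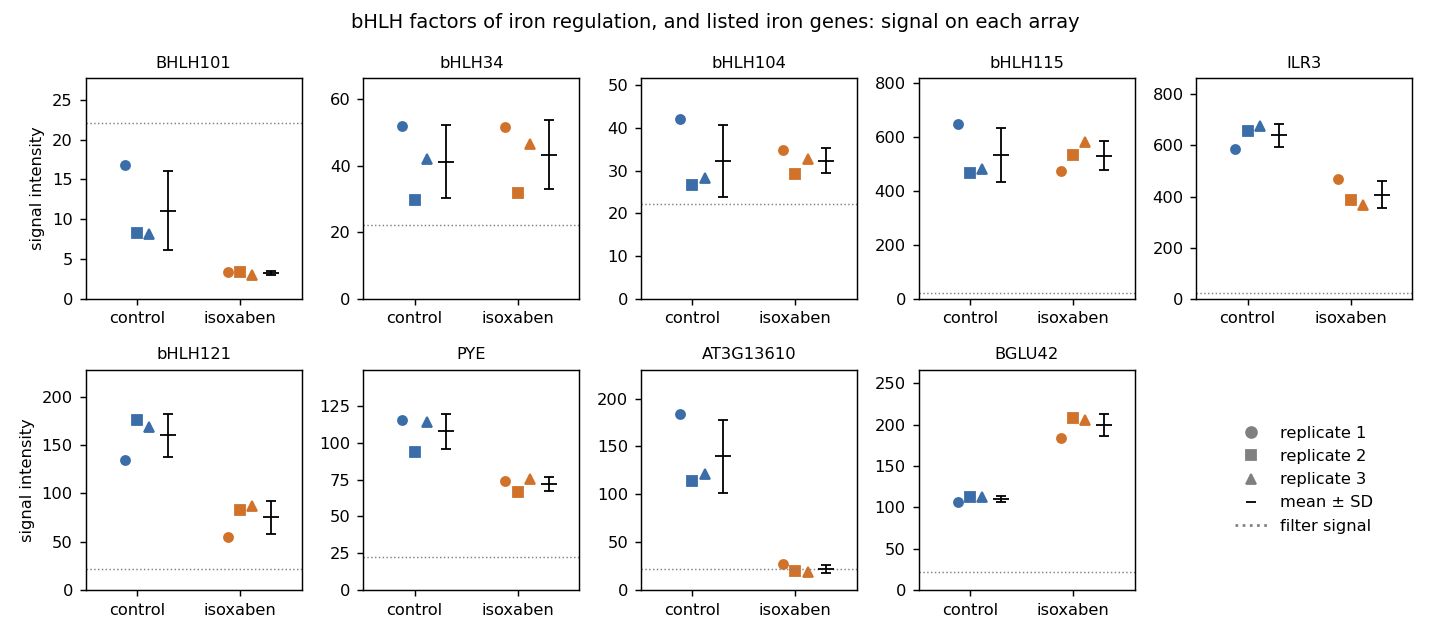
Signal intensity (linear, vertical axis from 0) of the 5 bHLH members and of ILR3, PYE, AT3G13610 and BGLU42 on each array, with the mean ± SD and a dotted line at the filter signal of 22.1. bHLH121, ILR3, PYE and AT3G13610 are lower on all isoxaben arrays, BGLU42 is higher on all of them, and bHLH34, bHLH104 and bHLH115 overlap.

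NAC014 (AT1G33060), the single NAC member, was at 91.2, 54.8 and 50.8 in control and at 111.8, 63.5 and 93.4 in isoxaben replicates. Within each replicate number the isoxaben array was the higher one, but control replicate 1 lay above isoxaben replicate 2. The mean was 65.6 ± 22.3 in control and 89.6 ± 24.4 in isoxaben cultures (SD, n = 3 each), and the log2 change of 0.38 ± 0.22 did not pass (SE; limma adjusted p = 0.171). With the replicate number as a block it passed (limma adjusted p = 0.0482), as with the title set as a block (0.0349), within the second title set (0.44, adjusted p = 0.0282) and without control replicate 1 (0.59, adjusted p = 0.0160). Without isoxaben replicate 1 it was 0.23 (limma adjusted p = 0.461). NAC014 was called in only 5 of the 17 alternative fits.

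Whether members of a family changed to unlike extents was tested on the difference of their log2 signals within each array, over all 21 pairs of tested members in the WRKY and bHLH families. In an exact permutation test (two-sided) 3 arrays against 3 cannot give a p under 0.1, and after Benjamini-Hochberg adjustment over the 21 pairs the lowest value was 0.175, so no pair passed. For single tested probe sets the groups did not overlap in 63.2%. The share for pairs of probe sets in general was not computed, so nothing particular is read from the count of pairs. The control and isoxaben differences did not overlap for 12 pairs. They included bHLH121 against each of bHLH115, bHLH104 and bHLH34, where the change of bHLH121 was the lower one by -0.966, -0.972 and -1.02 log2 units (exact permutation p = 0.1 each). They also included WRKY53 against WRKY20, WRKY22 and WRKY47. WRKY53 and ZAP1 differed by -0.28 with overlap (exact permutation p = 0.2).

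Relatives with names of their own were read from lists of the same families. Of 60 listed bHLH genes outside the name rule 14 had a named probe set and 7 were tested: 5 fell, 2 rose, and the median log2 change was -0.63. Of all tested probe sets 56.6% were called, 29.4% as higher and 27.2% as lower, and nothing particular to these few relatives is read from their count. MYC3, which switches on jasmonate responses, fell from 209 ± 3.90 to 63.9 ± 3.65 (SD, n = 3 each), with a gap between groups many times the spread within them (log2 change -1.49 ± 0.11 SE, limma adjusted p = 2.08e-06). Its relative MYC4 fell from 59.6 ± 4.50 to 27.3 ± 4.83 (log2 change -0.81 ± 0.14, limma adjusted p = 0.000808), and by 0.44 with a pseudocount of 64. SPT, a regulator of carpel and organ growth, fell from 122.6, 109.9 and 105.2 to 56.5, 58.9 and 54.7 (-0.82 ± 0.11, limma adjusted p = 0.000181). PYE and ILR3, described above, were the other falls.

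The 2 rises were BIM1 and LHW. BIM1, a partner of brassinosteroid-regulated factors, rose from 27.1 ± 4.26 to 68.0 ± 5.86 (SD, n = 3 each; log2 change 0.97 ± 0.14, and 0.54 with a pseudocount of 64, limma adjusted p = 0.000214). LHW, which promotes vascular cell division, rose from 80.4, 61.6 and 43.8 to 149.1, 126.9 and 77.5, with overlap between groups (0.77 ± 0.23, limma adjusted p = 0.0170). The call of LHW was lost without isoxaben replicate 1 (adjusted p = 0.0744), control replicate 3 (0.0625) or isoxaben replicate 2 (0.0650).

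For the MYB family the named probe sets were those of relatives outside the rule. AT5G47390, known as KUA1, a MYB-like regulator of cell expansion, fell from 251 ± 18.5 to 146.5 ± 9.37 (log2 change -0.72 ± 0.11, limma adjusted p = 0.00034). MYBC1, linked to freezing tolerance and listed only after the annotation was read, fell from 226.4, 395.7 and 375.3 to 123.1, 161.0 and 167.2 (-1.04 ± 0.20, limma adjusted p = 0.00157). TRY, a repressor of trichome fate, was too dim to be tested. Of 51 listed ERF and DREB genes, 7 had a named probe set and 3 were tested: LEP changed by 0.01 ± 0.18, tny by -0.14 ± 0.25 and PUCHI by -0.47 ± 0.34, and none passed limma (lowest adjusted p = 0.264). In PUCHI, control replicate 1 was at 75.2 and the other arrays at 14.3 to 21.0.

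Of 33 listed genes of ethylene synthesis and signalling, the pathway that acts through ERF factors, 2 were tested. EIN3, the master transcription factor of the pathway, fell from 374 ± 9.05 to 289 ± 18.6 (log2 change -0.35 ± 0.10, limma adjusted p = 0.0127), and the call was lost without isoxaben replicate 3 (adjusted p = 0.0578). RTE1, which promotes signalling by the receptor ETR1, rose from 30.5, 89.9 and 69.1 to 121.9, 160.7 and 170.5 (1.15 ± 0.27, limma adjusted p = 0.00451). Of 39 listed secondary wall genes, downstream of many MYB and NAC factors, 2 were tested and neither passed: HCT of lignin synthesis changed by -0.00 ± 0.11 and GUT2, a xylan synthase gene, by -0.37 ± 0.21. GUT2 passed in only 1 of 16 alternative fits, the one without control replicate 2 (limma adjusted p = 0.0408). With 56.6% of all tested probe sets called, these counts of 2 genes say little about either list. The same holds for the short MYB, ERF and WRKY-linked lists above. The lists of NAC and of WRKY relatives and of jasmonate and light signalling partners had no named probe set.

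**Figure D5:**
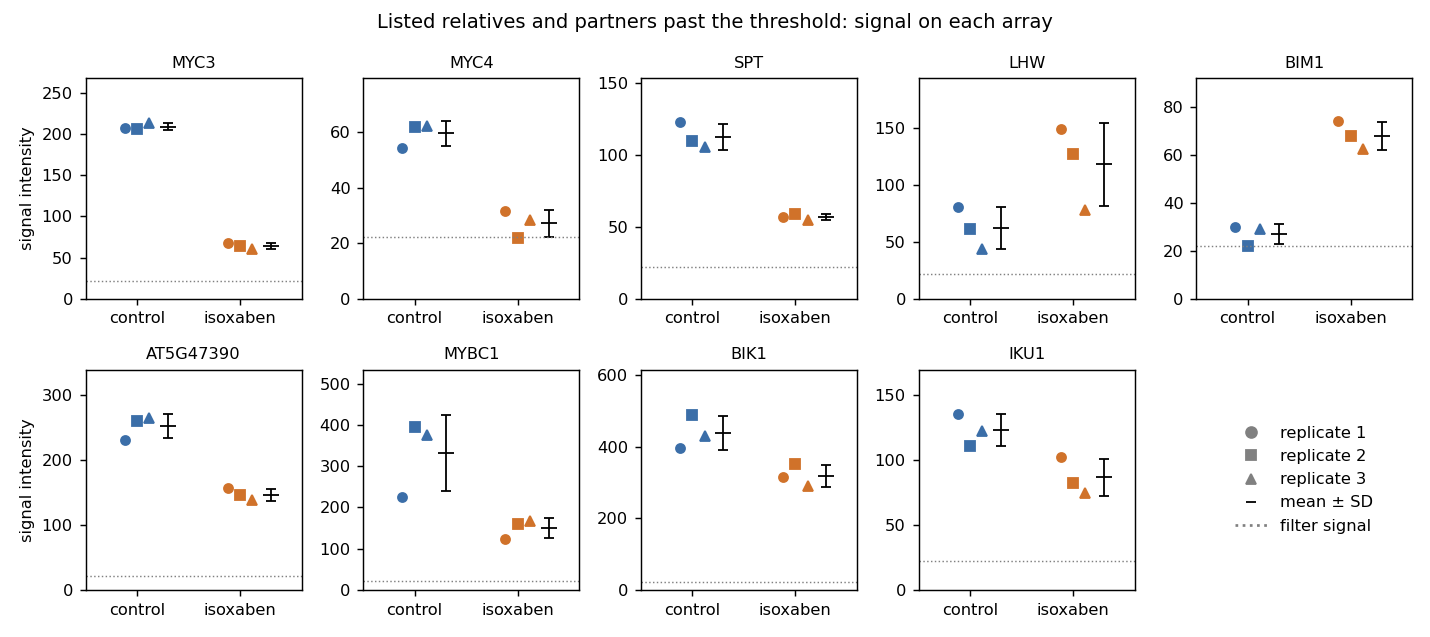
Signal intensity (linear, vertical axis from 0) of the listed bHLH and MYB relatives and WRKY partners that passed the test, PYE and ILR3 aside, on each array, with the mean ± SD and a dotted line at the filter signal of 22.1. LHW and BIM1 are higher with isoxaben, LHW with overlap between groups, and the other 7 genes are lower on all isoxaben arrays.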

How the data were processed

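Per the labels' protocols, RNA from a Qiagen extraction was turned into biotin-labelled cRNA. In the deposited table each cell is a linear signal intensity, for 22810 probe sets on 6 arrays, already scaled by the authors to a mean of 100.006 to 100.008 after trimming 2% at each end. The algorithm and genome build are not given in the sources used here. Groups came from titles. With the 64 control probe sets removed, signals became log2(signal + 16), on which scale the change of dim genes is understated, and tested with limma 3.58.1 in R 4.3.3 (lmFit, eBayes with an intensity trend, two-sided), with Benjamini-Hochberg adjustment over 13648 probe sets. On simulated data of that size with 200 probe sets changed by 1 log2 unit, 100% were recovered and 5.66% of the calls were false. The simulation drew independent normal noise with a spread set by mean signal, without array or title set effects. It also changed far fewer probe sets than were called here, so it does not give the recovery in these data. Symbols were updated through RefSeq (TAIR10.1, 13436 probe sets). Pairwise tests used scipy 1.17.1. The arrays' number limits the precision.

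At most 1.44% of values were equal between any 2 arrays. Deviations from the group means correlated between arrays of equal number at 0.207, 0.110 and 0.128 over probe sets. The labels number replicates 2 and 3, and the first title set was taken as 1. Numbers 2 and 3 crossed gave 0.101 and 0.118. Members and lists were chosen with earlier results of these data known. The iron list, the senescence list and 2 further relatives, MYBC1 and AT1G22490, were added after the annotation was read. AT1G22490 was too dim to be tested. Members were named if called with a log2 change of at least 1, or by family rank and a set list; here all 13 are given. Listed genes were named as the 2 smallest p in each direction, with the rest of any short count named after its values were seen. Alternatives were quantile normalization, median centring, pseudocounts of 1 and 64, no filter, a 60th percentile filter, a single prior variance, array weights, replicate and title set blocks, the second title set by itself, and each array left out in turn.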

Additional observations from a re-analysis of the deposited data

How the results depend on the processing

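The calls of WRKY53, ZAP1, WRKY20 and bHLH121 kept their direction and passed in every alternative in which the probe set was tested, with adjusted p-values of up to 0.00144, 0.000825, 0.0461 and 0.00371. With the pseudocount of 64 or 1, the change of WRKY53 ranged from -0.76 to -1.62. Members higher numbered 1 instead of 0 with array weights, the replicate block and the title set block, and 2 in the second title set alone. They were NAC014, with bHLH115 in the last case, so the NAC count was 1 in these 4 fits and the bHLH count 1 in the last. Over the whole table these fits also called more probe sets, against 7726 without such a change. The totals were 9871 with array weights, 8163 with the replicate block, 8654 with the title set block and 9031 in the second title set. Leaving out each array gave 0 to 1 members higher, 0 to 1 for NAC. With no filter, 2 bHLH members were lower, BHLH101 joining bHLH121. The replicate block gained the calls of NAC014 and WRKY6 and changed no other member's call. WRKY6 also passed with array weights, with the title set block, in the second title set and without isoxaben replicate 1. Of 183 comparisons of a member's change with an alternative, 151 kept direction and call, 11 gained a call and 21 turned in sign, none of them called. WRKY22 turned to 0.052 with array weights and 0.11 in the second title set, and without single arrays ranged from -0.062 to 0.057. WRKY47 turned to -0.071 in the second title set, with -0.070 to 0.15 without single arrays. bHLH115 turned to -0.0046 under quantile normalization and -0.044 under median centring, bHLH104 to -0.035 and -0.037 under the same settings, and bHLH34 to -0.0054 under quantile normalization and -0.065 with array weights. Without single arrays these 3 ranged from -0.079 to 0.15, -0.071 to 0.15 and -0.097 to 0.20. The cause was not tested. The MYB and ERF counts planned by family could not be made, as no probe set had such a name. The number of probe sets called over the whole table was 5926 to 9871 in all alternatives, against 7726. Listed genes were run under the same alternatives, a choice made after seeing the data.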
